A study of Rattus norvegicus with 24 samples.

Results

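Circulating white blood cells of rats that had inhaled formaldehyde for 7 days were compared with those of unexposed rats by gene expression array. The comparison used the 3 exposed and the 3 control arrays whose titles name white blood cells and the 7 day group, 6 of the 24 arrays of the series. Male Fischer rats, about 8 weeks old at the start, breathed 2 ppm formaldehyde, generated from an isotope-labelled paraformaldehyde, through nose-only tubes, 6 hours daily. The control rats were held in the same kind of tube with room air for as long, so both groups shared the restraint. White blood cells were separated from heparinised heart blood in cell preparation tubes after the last exposure. The other groups used below are exposed and control white blood cells at 28 days and exposed and control nasal epithelium at 7 days, each with 3 arrays. Whether the replicates were separate animals is not stated in the labels, so p-values measure the spread between arrays. For the blood comparisons that spread was estimated from the 12 blood arrays of both days together.

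Formaldehyde is a reactive aldehyde that binds protein and DNA where it first meets tissue, and inhaled formaldehyde is taken up mainly by the lining of the nose. Circulating white blood cells are a mixture of lymphocytes, natural killer (NK) cells, monocytes and granulocytes. How much of each type the separation kept was not measured. Cytotoxic lymphocytes kill target cells by releasing granules that hold perforin and the granzyme proteases. A bulk measurement of such a mixture cannot tell fewer cells of a type from less RNA per cell.

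On the log2 scale of the deposited normalised intensity, the T cell marker list averaged 10.59 to 10.75 in the exposed arrays, against 10.48 to 10.71 in the control arrays. The red cell and heme list averaged 10.87 to 11.13 in the exposed arrays, against 11.36 to 11.87 in the control arrays, so the preparations held red cell transcripts in every array. The lists of epithelial cells, olfactory neurons and endothelium mark cells that blood should lack. These lists averaged between 6.88 and 7.12 in the exposed arrays and between 6.95 and 7.14 in the control arrays. Of their 28 measured members 0 passed the test, where 0.475% of all probe sets did. Control replicate 2 stood slightly apart, with the highest red cell and neutrophil list means and the lowest NK list mean of the 6 arrays. All 30 named genes that passed the test at 7 days lost their call without that array, and also without exposed replicate 1 or 2. Without exposed replicate 3 or control replicate 3, 29 lost it, and without control replicate 1, 9 lost it. The values without control replicate 2 are given below for the called cytotoxic, red cell and neutrophil genes and for Slc25a37, Gpr4 and Atp6v0a1.

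Of 21910 probe sets tested, 24 (0.11%) rose and 80 (0.365%) fell in the exposed white blood cells at an adjusted p under 0.05 (limma, Benjamini-Hochberg adjustment over all probe sets), 0.475% in all. The sizes ran from 0.38 to 1.80 on the log2 scale, and 13 of the 104 differed by 2-fold or more. All 104 had exposed and control values that did not overlap; over all probe sets tested, 19.5% had every exposed array above every control array and 10.4% every exposed array below. An unadjusted p under 0.05 was reached by 3316 probe sets, 1941 higher and 1375 lower, and the median difference over all probe sets was 0.04. The number of calls depended on single arrays: leaving out 1 array gave 5, 2 or 3 calls without exposed replicate 1, 2 or 3, and 115, 2 or 4 without control replicate 1, 2 or 3. All 30 genes named below that passed the test kept their direction in each setting tried. Their groups did not overlap, so leaving out an array could not reverse it, and the kept direction is no sign of stability. None of the 30 kept its call in every fit with 1 array left out.

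The named genes that rose were led by the contents and receptors of cytotoxic lymphocytes. Gzmk, Gzma and Gzmb, which encode granzymes K, A and B, and Klrg1, an inhibitory lectin-like receptor of NK cells and effector T cells, were 4 of the 13 named genes that rose. Gzma and Gzmk lie on chromosome 2 and Gzmb on chromosome 15. The promoter windows of the 3 granzyme genes, 250 bases before and 50 bases after the annotated start, are shown because these genes moved together. They come from RefSeq, build GRCr8, on the minus strand, at chr2:46485647-46485946 for Gzma, chr15:34462420-34462719 for Gzmb and chr2:46581966-46582265 for Gzmk. Capitals mark matches on either strand to TGTGGT, the core letters bound by RUNX factors.
Gzma: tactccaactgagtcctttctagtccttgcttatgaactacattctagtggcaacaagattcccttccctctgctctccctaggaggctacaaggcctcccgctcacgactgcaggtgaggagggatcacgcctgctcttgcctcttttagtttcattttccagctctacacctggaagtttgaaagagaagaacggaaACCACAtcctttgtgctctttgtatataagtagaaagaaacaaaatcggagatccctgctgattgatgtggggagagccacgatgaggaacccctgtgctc
Gzmb: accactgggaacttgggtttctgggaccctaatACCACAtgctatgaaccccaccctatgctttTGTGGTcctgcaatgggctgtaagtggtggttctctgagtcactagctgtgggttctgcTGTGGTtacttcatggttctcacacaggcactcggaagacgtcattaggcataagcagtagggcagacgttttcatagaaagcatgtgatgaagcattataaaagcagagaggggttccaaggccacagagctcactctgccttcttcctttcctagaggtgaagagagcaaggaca
Gzmk: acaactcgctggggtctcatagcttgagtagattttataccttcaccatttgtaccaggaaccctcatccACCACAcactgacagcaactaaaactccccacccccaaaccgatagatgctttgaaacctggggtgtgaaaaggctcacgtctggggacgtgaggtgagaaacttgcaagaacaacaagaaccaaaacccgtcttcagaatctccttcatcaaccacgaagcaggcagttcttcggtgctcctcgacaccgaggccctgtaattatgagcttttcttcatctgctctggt
Gzmb held 3 matches to TGTGGT, and Gzma and Gzmk held 1 each, where 17.3% of 33469 rat promoter windows of the same length held at least 1. The ETS core GGAAGT, searched on both strands, was found once in the Gzma window and in 22.6% of all windows. The GATA core AGATAA had 0 matches in each of the 3 windows and was found in 11.6% of all windows. The window of Sptb, a gene that fell, was also searched and held 0 RUNX, 1 GATA and 0 ETS matches. Whether any of these factors acts on these genes was not tested.

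Gzmk had 11.75, 11.59 and 11.72 in the exposed arrays, against 10.94, 10.42 and 10.80 in the control arrays, all as log2 intensity. Every exposed array lay above every control array, and the difference was 0.97 (SE 0.15, adjusted p = 0.0313). Klrg1 had 10.16, 9.99 and 10.20 in the exposed arrays and 9.44, 8.98 and 9.09 in the control arrays. Its difference was 0.95 (SE 0.14, adjusted p = 0.0313), again with no overlap. Gzma had 11.96, 11.90 and 11.96 in the exposed arrays and 11.17, 10.74 and 11.20 in the control arrays, a difference of 0.91 (SE 0.16, adjusted p = 0.0374). The exposed Gzma values lay within an SD of 0.03, while the control values had an SD of 0.26. Gzmb had 11.82, 11.73 and 11.98 in the exposed arrays and 11.10, 11.03 and 11.29 in the control arrays, a difference of 0.70 (SE 0.13, adjusted p = 0.0465). Without control replicate 2, which had the lowest value of each of these 4 genes, the differences were 0.82 for Gzmk, 0.86 for Klrg1, 0.76 for Gzma and 0.65 for Gzmb, with adjusted p of 0.146, 0.146, 0.188 and 0.241.

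Of the 30 genes listed for NK and cytotoxic cells, 25 passed the filter on dim probe sets. Of these, 4 rose and 0 fell, the other 21 missed the threshold, and all 25 differences were positive, with a median of 0.49. Over all 11717 named genes tested, 13 rose, 45 fell, 61.4% of the differences were positive and the median was 0.04. In 19 of the 25, every exposed array lay above every control array, where 19.5% of all probe sets did. Among those that did not pass were the inhibitory and activating NK receptors Klrc1 (0.80, adjusted p = 0.0769), Klrc2 (0.85, adjusted p = 0.106) and Ncr1 (0.79, adjusted p = 0.128). The pore-forming protein perforin, Prf1, differed by 0.20 (adjusted p = 0.348), and the transcription factor Tbx21 by 0.13 (adjusted p = 0.753). The list's mean was 10.50, 10.45 and 10.53 in the exposed arrays, against 10.04, 9.84 and 10.08 in the control arrays. The list median was 0.37 to 0.58 with each array left out. With 19 of 25 members wholly above the control arrays, it could not turn negative in these fits.

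In the T cell list 0 of 22 measured members passed the test in either direction, where 0.475% of all probe sets did. At that share a list of this size would hold few calls or none. The median was 0.09. Markers of B cells had a median of −0.14, of monocytes and macrophages 0.04, of dendritic cells 0.11 and of platelets 0.02, with no member past the threshold in these 4 lists. Within the monocyte list the differences spread from −1.92 for Fn1, fibronectin (adjusted p = 0.151), to 0.79 for Fcgr3a, an Fc receptor that NK cells also carry (adjusted p = 0.0816).

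**Figure D1:**
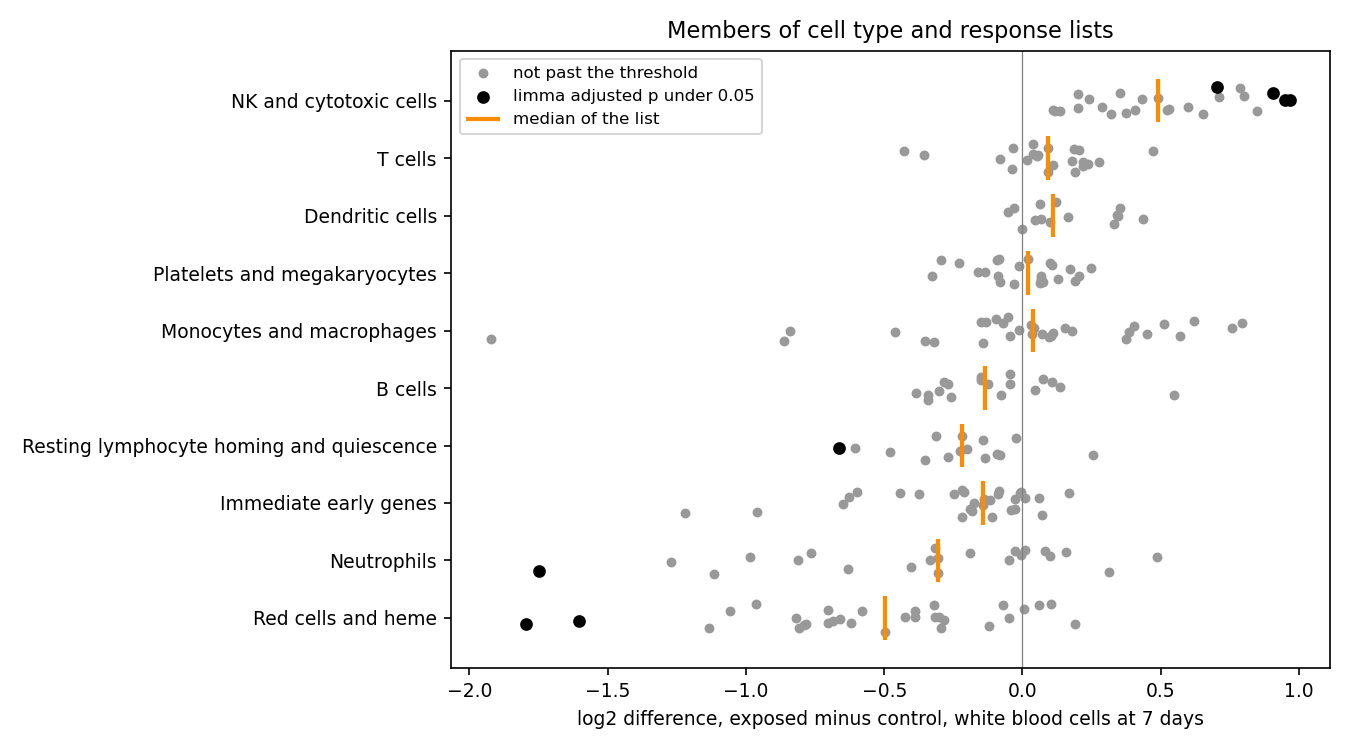
Each point is the log2 difference, exposed minus control, of 1 gene in white blood cells at 7 days, on the horizontal axis, by list; black points have a limma adjusted p under 0.05 and orange bars are list medians. All 25 NK and cytotoxic genes lie to the right of 0, while 27 of 31 red cell genes lie to the left.

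The other named genes that rose did not belong to the cytotoxic list. Serpinb9, an intracellular inhibitor of granzyme B, had 11.30, 11.18 and 11.27 in the exposed arrays and 10.90, 10.58 and 10.57 in the control arrays. Its difference was 0.57 (SE 0.10, adjusted p = 0.0414). Ogg1, the glycosylase that removes 8-oxoguanine from DNA, had 9.18, 9.28 and 9.32 in the exposed arrays and 8.68, 8.67 and 8.54 in the control arrays. The groups were clearly apart, with SDs of 0.07 and 0.08 and a difference of 0.63 (SE 0.10, adjusted p = 0.0313). Ogg1 was the only called gene of the 25 measured in the list of DNA crosslink, excision and base repair, whose median was 0.08. The remaining risers were H4c14, a histone H4 gene of a family of near-identical copies and so uncertain in identity (0.75), Pnrc2, a factor in mRNA decapping (0.65), Ubfd1 (0.63), Emc7, a subunit of the endoplasmic reticulum membrane complex (0.60), Stmn1, the microtubule regulator stathmin (0.60), Ube2w, a ubiquitin-conjugating enzyme (0.58) and Arl1, a small GTPase of the Golgi (0.57).

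Of the 3 named genes with the largest falls, Ank1 and Sptb encode parts of the red cell membrane skeleton and Ngp, described further below, a neutrophil granule protein. Ank1, erythrocyte ankyrin, had 9.30, 9.32 and 8.87 in the exposed arrays and 10.74, 11.48 and 10.67 in the control arrays. It fell by 1.80 on the log2 scale (SE 0.33, adjusted p = 0.0429), with no overlap. Sptb, erythrocyte beta spectrin, had 9.88, 9.89 and 9.54 in the exposed arrays and 11.11, 11.87 and 11.13 in the control arrays. It fell by 1.60 (SE 0.29, adjusted p = 0.0402). Slc25a37, mitoferrin 1, which carries iron into the mitochondria of developing red cells, had 10.82, 10.90 and 10.30 in the exposed arrays and 11.76, 12.33 and 11.78 in the control arrays. It fell by 1.28 (SE 0.24, adjusted p = 0.0429). Control replicate 2 was the highest array for all 3 genes. Without it the differences were −1.54 for Ank1, −1.35 for Sptb and −1.09 for Slc25a37, with adjusted p of 0.218, 0.195 and 0.218.

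Of the 40 genes listed for red cells and heme, 31 passed the filter: 2 fell (Ank1 and Sptb), 0 rose, and 29 missed the threshold. The median was −0.50, 27 of 31 differences were negative, and in 22 every exposed array lay below every control array. Over all 11717 named genes tested, 45 fell and 4519 differences were negative, and 10.4% of all probe sets lay wholly below. Members that did not pass included Dmtn, the actin-binding dematin (−1.13, adjusted p = 0.0847), Klf1, the erythroid transcription factor (−1.06, adjusted p = 0.18), Tfrc, the transferrin receptor (−0.82, adjusted p = 0.141), and Slc4a1, the band 3 anion exchanger (−0.62, adjusted p = 0.0742). The globin transcript Hbb was near the top of the intensity range, with 13.94 to 13.98 in the exposed arrays and 13.97 to 14.07 in the control arrays, which overlap; it had a difference of −0.05 (adjusted p = 0.811). The list's mean was 11.13, 11.12 and 10.87 in the exposed arrays, against 11.52, 11.87 and 11.36 in the control arrays. The list median was −0.64 to −0.40 with each array left out. With 22 of 31 members wholly below the control arrays, it could not turn positive in these fits. Red cell content was not measured apart from these transcripts, and its part in the other falls was not tested.

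**Figure D2:**
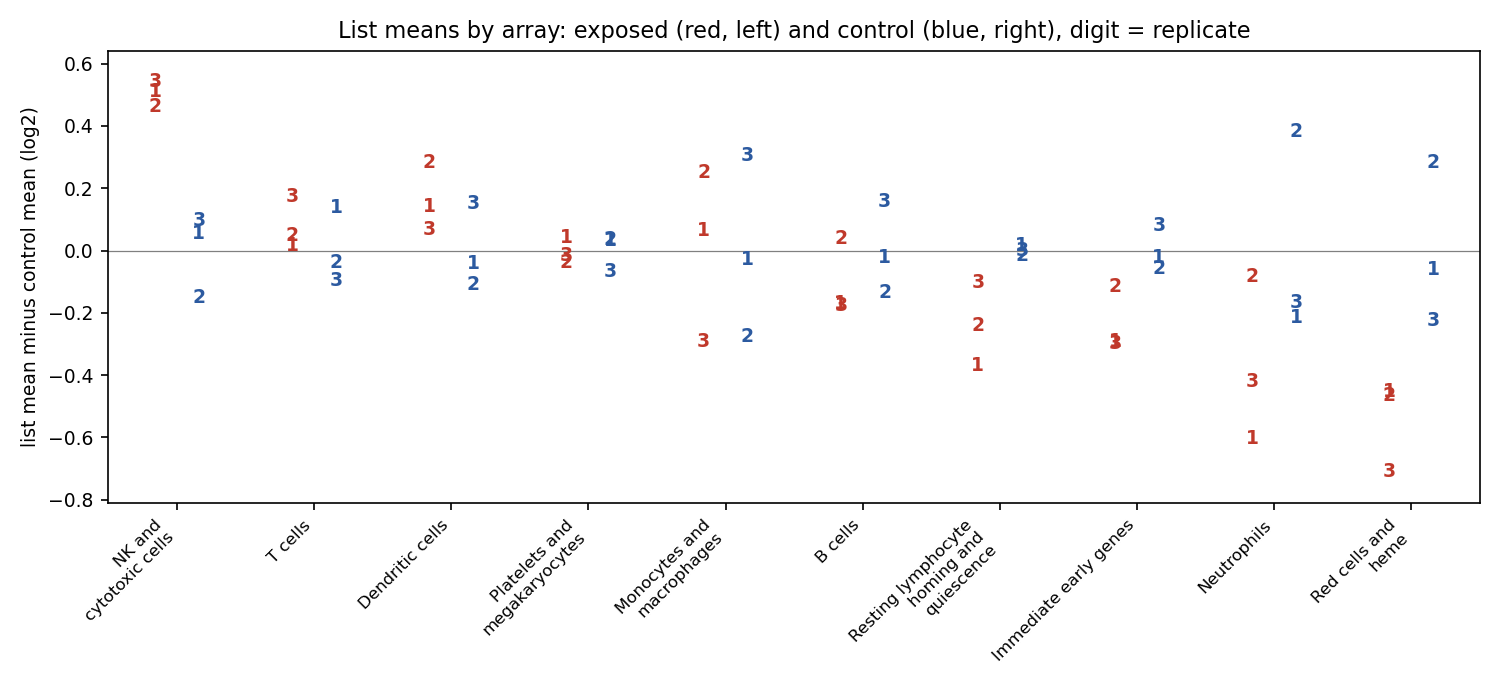
The mean log2 level of each list in each array, minus the mean of the control arrays (vertical axis), is shown by replicate number, exposed in red at left and control in blue at right. The 3 exposed arrays lie between 0.46 and 0.54 for NK and cytotoxic cells and between −0.71 and −0.45 for red cells and heme.

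Ngp, neutrophilic granule protein, had 5.68, 6.27 and 7.14 in the exposed arrays and 8.14, 8.58 and 7.62 in the control arrays. It fell by 1.75 on the log2 scale (SE 0.31, adjusted p = 0.0414). The exposed arrays spread widely, with an SD of 0.74, and without control replicate 2 the difference was −1.52 (adjusted p = 0.203). The filter level was 5.96, so exposed replicate 1 lay below it and the size of the fall is uncertain. Ngp also lost its call when only the 6 arrays compared were fitted. Ngp was the only called gene among 22 measured neutrophil genes, whose median was −0.30. Others of that list were no nearer the threshold: S100a9, a calprotectin subunit, differed by −0.99 (adjusted p = 0.599) and had 11.30 in control replicate 2, where the other 5 arrays had 8.19 to 9.84. The neutrophil list's median was −0.05 without control replicate 2. The list's mean was 7.51 to 8.03 in the exposed arrays and 7.90 to 8.49 in the control arrays. The part of the cell separation in these neutrophil values was not tested.

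Other named falls spanned membrane, trafficking and nuclear proteins. Gpr4, a proton-sensing receptor, had 7.60, 7.40 and 7.19 in the exposed arrays and 8.74, 9.20 and 8.36 in the control arrays, and fell by 1.37 (SE 0.21, adjusted p = 0.0313). Atp6v0a1, a subunit of the vacuolar proton pump, had 9.92, 10.08 and 9.62 in the exposed arrays and 10.85, 11.38 and 10.84 in the control arrays, and fell by 1.15 (SE 0.18, adjusted p = 0.0313). Neither gene's groups overlapped, and control replicate 2 was again the highest array. Without it the differences were −1.15 for Gpr4 and −0.97 for Atp6v0a1, both with an adjusted p of 0.146. Smaller falls were measured for Sdc3, a heparan sulfate proteoglycan (−0.99), Trak2, a mitochondrial transport adaptor (−0.98), Nfix, a nuclear factor I transcription factor (−0.92), Mast2, a microtubule-associated kinase (−0.88), Wdtc1 (−0.77) and Sidt2, a lysosomal membrane protein (−0.76). The set was completed by splicing and chromatin genes: Rbm39 (−0.76), Sf3a2, a subunit of splicing factor 3a (−0.73), and Hcfc1, host cell factor 1 (−0.72). The other probe set of Rbm39 differed by 0.04 (adjusted p = 0.931), so the probe sets of this gene disagree.

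**Figure D3:**
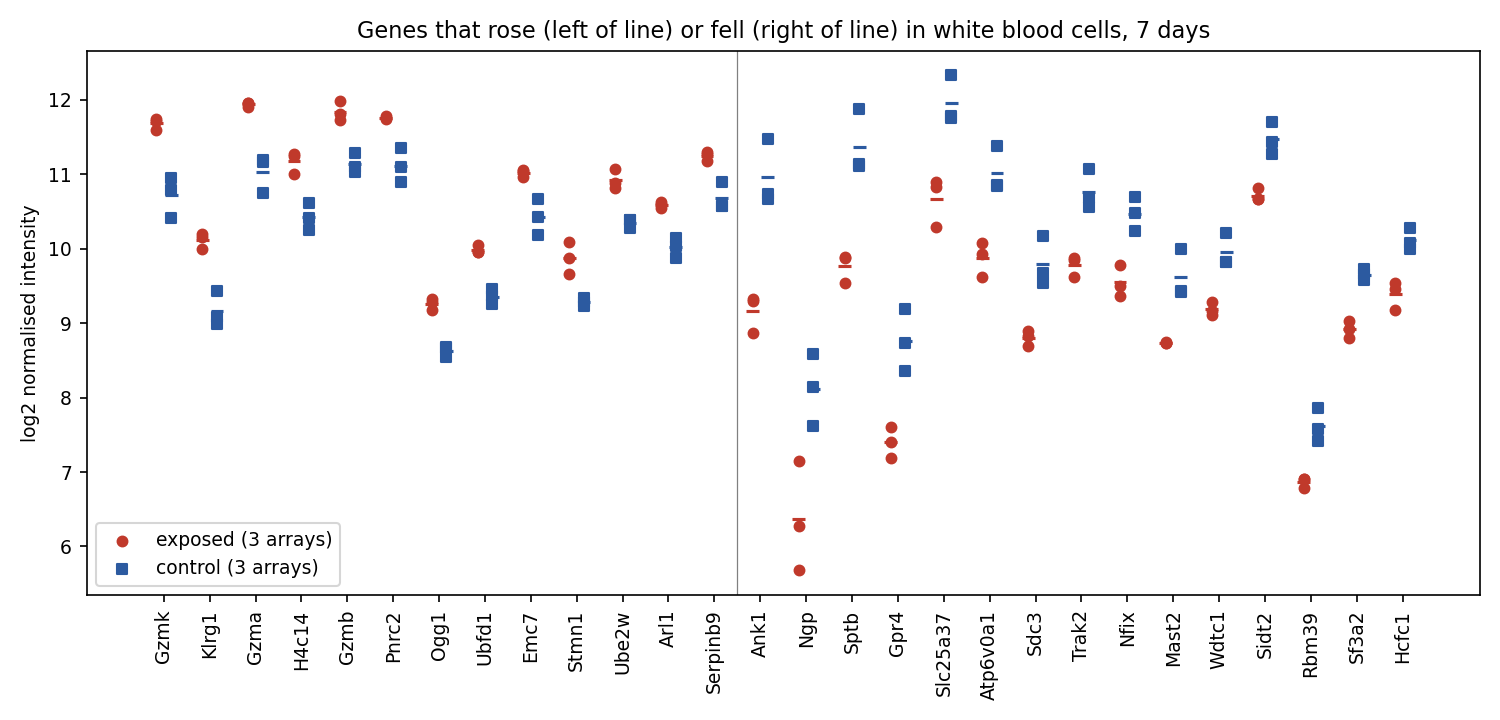
Log2 normalised intensity (vertical axis) of the named genes that rose or fell most, with 1 point per array and a bar at the group mean, exposed as red circles at left and control as blue squares at right. In each gene the 3 exposed arrays lie wholly above or wholly below the 3 control arrays.

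Foxo1, a transcription factor that maintains resting lymphocytes, had 10.36, 10.70 and 10.76 in the exposed arrays and 11.20, 11.30 and 11.31 in the control arrays. It fell by 0.67 on the log2 scale (SE 0.12, adjusted p = 0.0368). Of 15 measured genes of lymphocyte homing and quiescence, 14 had a negative difference, where 4519 of all 11717 named genes did. Their median was −0.22, and Foxo1 was the only call among them. The next in size were Bach2 (−0.60, adjusted p = 0.0599) and Klf2 (−0.48, adjusted p = 0.0937). Tle3, a corepressor in the glucocorticoid response list, had 9.07, 9.38 and 9.58 in the exposed arrays and 9.94 to 10.12 in the control arrays, and fell by 0.68 (SE 0.12, adjusted p = 0.0402). That list had 21 measured members, 1 call and a median of 0.00.

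Of the 104 called probe sets, 45 carried no single gene name. The smallest adjusted p of all belonged to probe set 10930624, which had 11.47, 11.74 and 11.65 in the exposed arrays and 13.04, 13.32 and 13.09 in the control arrays, a difference of −1.53 (adjusted p = 0.00254). Probe set 10940491 followed, with 10.60, 10.82 and 10.58 in the exposed arrays and 12.11, 12.48 and 12.23 in the control arrays, a difference of −1.60 (adjusted p = 0.00407). These 2 probe sets, also picked out after their values were seen, kept their calls in every setting tried, the fits with 1 array left out included. No gene is named for them here.

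The following lists of general cell function gave no call, where 0.475% of all probe sets passed in either direction. Of 68 measured cytosolic ribosomal protein genes, 60 had a positive difference, where 61.4% of all named genes did. In 38 of them every exposed array lay above every control array, where 19.5% of all probe sets did. The median was 0.11, with 0 calls. Oxidative phosphorylation had 49 positive of 67, a median of 0.11 and 0 calls. Immediate early genes, which respond within minutes to stimuli, had 25 negative of 29, a median of −0.14 and 0 calls. Fos, among them, differed by −1.22 (adjusted p = 0.225).

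The enzymes that handle aldehydes and peroxide did not pass the test. Cat, catalase, had 12.75, 12.87 and 12.60 in the exposed arrays and 13.17, 13.44 and 13.13 in the control arrays, a difference of −0.50 (SE 0.11, adjusted p = 0.0634). Aldh2, mitochondrial aldehyde dehydrogenase, differed by −0.19 (adjusted p = 0.618), with overlapping groups. Esd, S-formylglutathione hydrolase of the formaldehyde detoxification pathway, differed by 0.36 (adjusted p = 0.217), and Aldh3a1 by −0.05 (adjusted p = 0.824). Aldh1a1 did not pass the filter on dim probe sets. Of 16 measured genes of aldehyde and formaldehyde metabolism 0 passed the test, where 0.475% of all probe sets did.

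The differences at 7 days were set beside those at 28 days, from other arrays of the same tissue. Of the 24 probe sets that rose at 7 days, 22 were higher in exposed arrays at 28 days and 8 passed the test there, where 3.95% of all probe sets rose. Of the 80 that fell, 78 were lower at 28 days and 31 passed the test, where 1.31% of all fell, 5.27% of all probe sets having passed in either direction. Over all probe sets tested, 55.4% had the same sign on both days. The median difference of the probe sets that rose was 0.62 at 7 days and 0.26 at 28 days, and of those that fell −0.68 at 7 days and −0.40 at 28 days. The 7 day values chose these probe sets, so a smaller value at 28 days is no finding. Both days shared 1 estimate of spread per probe set, so a choice by the 7 day test also favours passing at 28 days. The shares over all probe sets are therefore not a like background for the counts that passed there.

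The cytotoxic genes were among those past the threshold on both days. At 28 days Klrg1 differed by 0.99 (adjusted p = 0.00431), Gzmk by 0.91 (adjusted p = 0.00565), Gzma by 0.89 (adjusted p = 0.00832) and Gzmb by 0.81 (adjusted p = 0.00617), and 14 of the 25 measured genes of the list rose, with a median of 0.52. Ank1 differed by −0.75 (adjusted p = 0.258) and Sptb by −0.53 (adjusted p = 0.378) at 28 days, where 3 red cell genes rose, 0 fell and the list median was −0.14. Ogg1 differed by −0.02 (adjusted p = 0.954) and Pnrc2 by 0.04 (adjusted p = 0.921) at 28 days. The control means of these genes also differed between days: 8.63 at 7 days and 7.80 at 28 days for Ogg1, and 11.11 and 10.42 for Pnrc2. The cause of that shift between the sets of arrays was not tested. The test of the 7 day difference minus the 28 day difference called 0 of 21910 probe sets (0%) with limma, with a smallest adjusted p of 0.0605 and 2528 at an unadjusted p under 0.05. With all 24 arrays in the fit, 145 probe sets passed, 20 higher and 125 lower, so the count between days depended on which arrays set the spread.

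**Figure D4:**
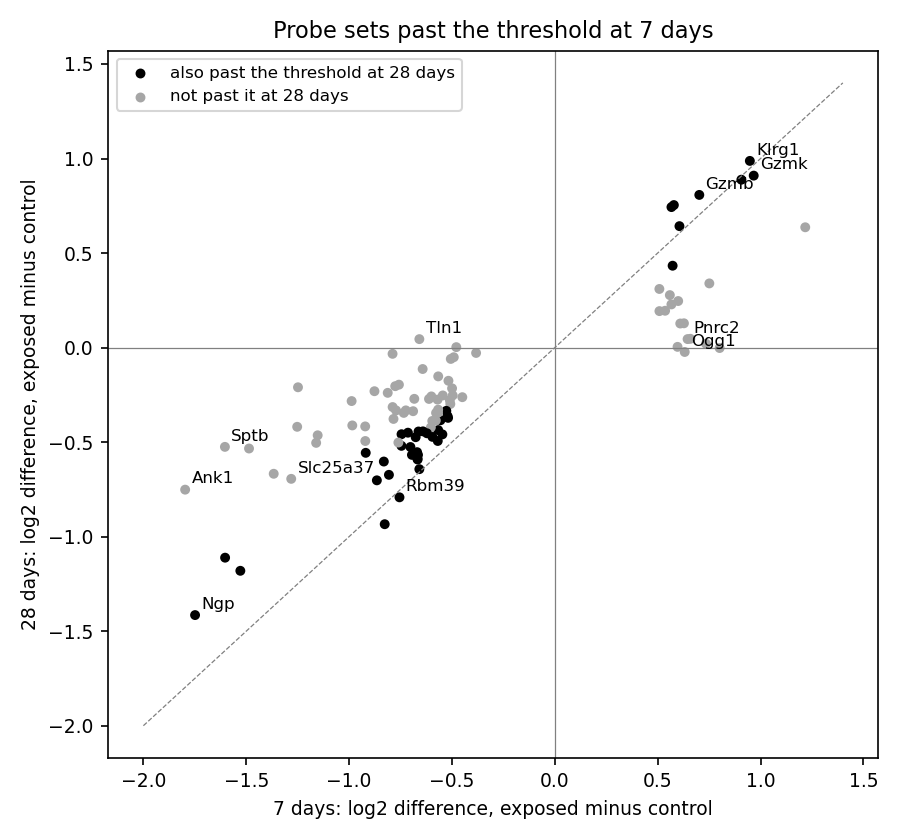
The 104 probe sets past the threshold at 7 days, with the log2 difference (exposed minus control) at 7 days on the horizontal axis and at 28 days on the vertical axis; black points also passed at 28 days and the dashed line marks equal values. Gzmk, Klrg1 and Gzmb lie near the line, and Ank1 and Sptb, at −0.75 and −0.53 on the vertical axis, lie nearer 0 at 28 days.

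Exposure differences in blood were also compared with those in nasal epithelium at 7 days. Of 20096 probe sets measured in both tissues, the blood difference was higher than the nasal one for 1136 (5.65%) and lower for 1025 (5.1%), 10.8% in all. In the nose alone 16.3% of probe sets passed, 8.43% higher and 7.84% lower in the exposed arrays. Of the called blood probe sets, 100 were tested in both: 5 of 22 that rose in blood were higher in exposed nose, and 52 of 78 that fell in blood were lower there. Over all 21910 probe sets tested in nose the median difference was −0.05. At an unadjusted limma p under 0.05, 2949 of them were higher and 3716 lower. The share of each sign over all probe sets in nose was not counted, so these counts show neither agreement nor opposition between tissues.

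Cxcr6, a chemokine receptor of effector and resident lymphocytes, had 10.90, 10.50 and 10.68 in the exposed blood arrays and 9.91, 9.45 and 9.66 in the control blood arrays. The groups did not overlap, yet the blood difference of 1.02 missed the threshold (adjusted p = 0.0554). In nose the difference was −1.04, so the blood difference exceeded the nasal one by 2.06 (SE 0.30, adjusted p = 0.000905). Serpinb9 differed by 0.57 in blood and −0.62 in nose, a gap of 1.19 (adjusted p = 0.000905). Sdc3 differed by −0.99 in blood and 1.09 in nose, and Dmtn by −1.13 in blood and 1.64 in nose. Gzma, Gzmk and Ngp were not measured above the filter in nose, and Gzmb differed by −0.09 there. The gaps that were largest in size, those of the olfactory receptors Or2l13 and Or12j5, came from the nose, at 3.30 and 3.36, against −0.03 and 0.09 in blood.

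**Figure D5:**
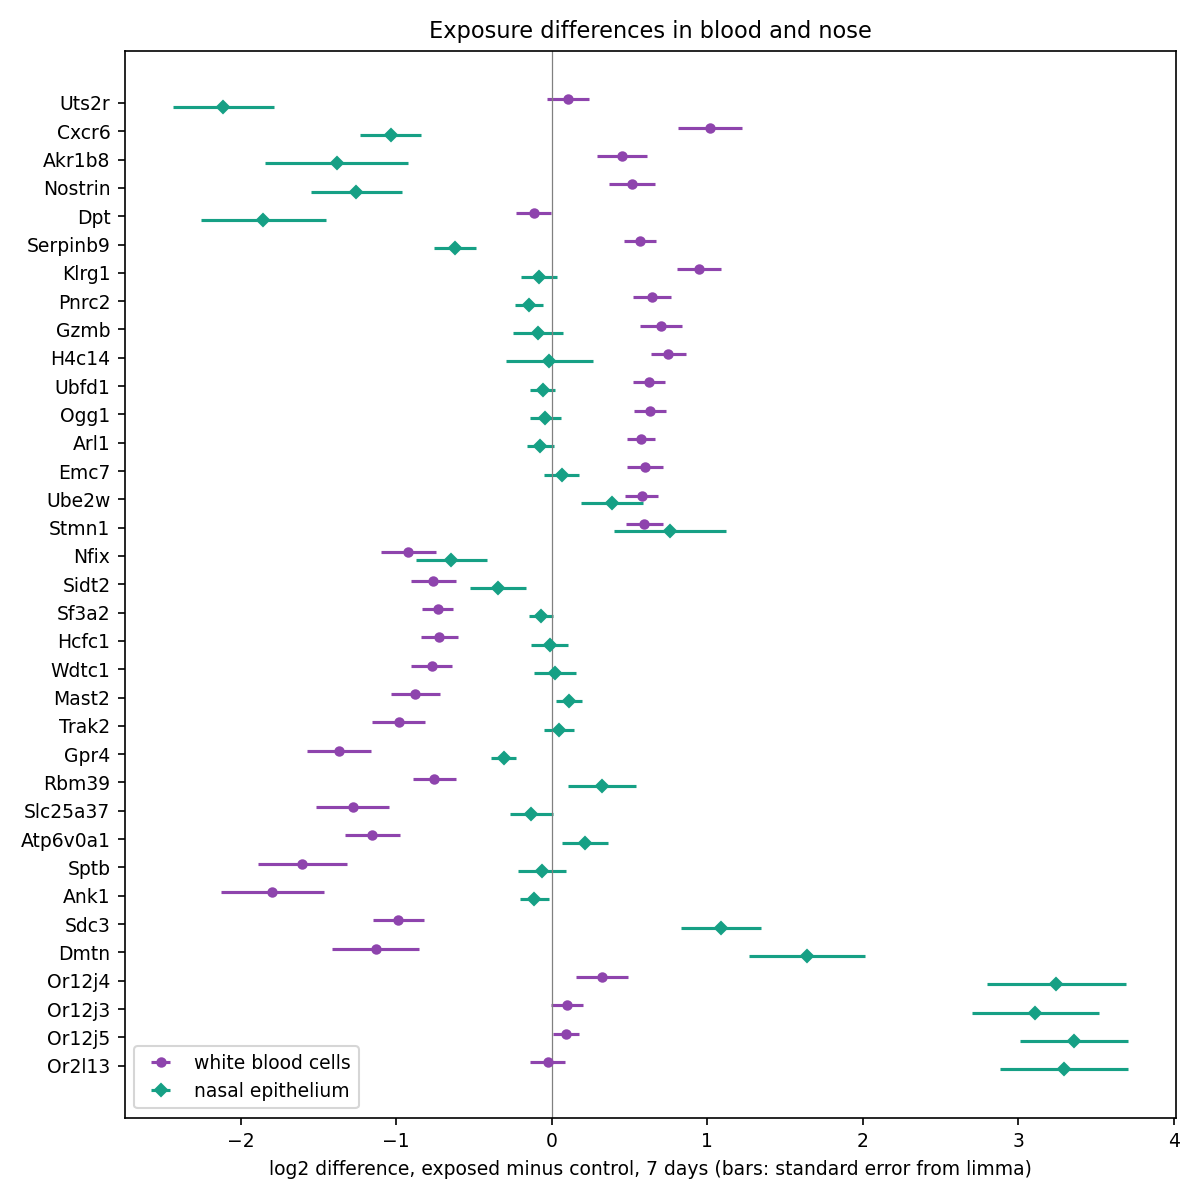
Exposure differences at 7 days (exposed minus control, log2, horizontal axis; bars are standard errors from limma) for genes measured in both tissues, white blood cells as purple circles and nasal epithelium as green diamonds. Cxcr6 and Serpinb9 are above 0 in blood and below 0 in nose, and Sdc3 and Dmtn are below 0 in blood and above 0 in nose.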

How the data were processed

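RNA of circulating white blood cells and nasal epithelium was measured on Affymetrix arrays with biotin label. The authors deposited 1 normalised intensity per probe set and array, on a linear scale, for 29214 probe sets and 24 arrays (0 columns unmapped). The submitters' processing notes name Partek, without a version; how background was corrected and arrays were normalised is not given in the sources used here. Precision is limited by the number of arrays, which was 3 in each group.

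Groups came from sample titles. The deposited values were log2 transformed and not normalised again. Probe sets whose mean in blood was at or above percentile 25 were kept (21910; 20096 in both tissues). In R 4.3.3, limma 3.58.1 (lmFit, contrasts.fit, eBayes) was fitted to the 12 blood arrays as 4 group means, and to all 24 arrays, as 8 group means, for blood against nose; tests were two-sided, with Benjamini-Hochberg adjustment and a threshold of 0.05.

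Gene names came from the platform table, updated by gene identifier: 15310 probe sets had 1 symbol, 323 several and 13581 none. Adh5 shares its probe set with another gene and is not named. A gene in the 36 lists was represented by its probe set of the highest mean. The comparison and lists were chosen with earlier results of these data known. The text names up to 15 genes in each direction, by size of change past the threshold, up to 4 called members per list, the enzymes Esd, Aldh2, Cat, Aldh1a1 and Aldh3a1, and the 5 largest differences in each direction between tissues or days. Fits were tested on simulated data with 200 changed probe sets: at 2-fold 91.0% were recovered for 7 day blood, and at 1.5-fold 59.7%, with 8 false calls. For the 7 day minus 28 day difference, 76.1% were recovered at 2-fold and 34.3% at 1.5-fold, with 9 false calls. The simulated spread was independent between probe sets, so shifts shared by many genes of an array were not simulated. The labels do not state that replicate numbers pair arrays, so the main fit did not pair them. Same-numbered exposed and control blood arrays had residual correlations of 0.03, −0.0084 and −0.0518 at 7 days and −0.3479, −0.2159 and 0.0697 at 28 days. With 3 arrays in each group these values cannot exclude a pairing. Alternatives were the filter, scaling, prior, array weights, replicate block, threshold, arrays in the fit and each array left out. Figures were drawn with matplotlib 3.10.9.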

Additional observations from a re-analysis of the deposited data

Results flagged for a closer look

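Exposure differences in white blood cells and in nose at 7 days were set against each other in 1 limma fit over all 24 arrays, and 31 of the 41 named genes tested in both tissues passed the test of that difference, 13 higher and 18 lower in blood. Many of these genes were named for their blood difference, which is part of the value tested. The 5 largest gaps in each direction were named for passing this same test, so that they passed was fixed in advance. The number that passed is therefore no finding. The 10.8% of all probe sets that passed is not a like background for it. The values are log2 differences, blood minus nose.

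Among genes that rose in blood, the blood difference exceeded the nasal one by 1.03 for Klrg1, 0.79 for Gzmb, 0.79 for Pnrc2, 0.67 for Ogg1, 0.69 for Ubfd1, 0.54 for Emc7, 0.65 for Arl1 and 1.19 for Serpinb9. Among genes that fell in blood, the gap was −1.69 for Ank1, −1.54 for Sptb, −1.06 for Gpr4, −1.15 for Slc25a37, −1.36 for Atp6v0a1, −2.08 for Sdc3 and −1.03 for Trak2. It was −0.99 for Mast2, −0.79 for Wdtc1, −1.08 for Rbm39, −0.67 for Sf3a2, −0.71 for Hcfc1 and −0.83 for Foxo1. Rbm39 is represented here by 1 of its probe sets, and the other did not fall in blood.

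The 5 largest gaps above 0 were 2.22 for Uts2r, 2.06 for Cxcr6, 1.83 for Akr1b8, 1.77 for Nostrin and 1.74 for Dpt. Uts2r differed by 0.11 in blood and −2.11 in nose, and Dpt by −0.12 in blood and −1.86 in nose. The 5 largest gaps below 0 were −3.32 for Or2l13, −3.27 for Or12j5, −3.01 for Or12j3, −2.92 for Or12j4 and −2.78 for Dmtn. The 4 olfactory receptor genes among these differed by −0.03 to 0.32 in blood, while Dmtn differed by −1.13 in blood (adjusted p = 0.0847) and 1.64 in nose. Akr1b8 lost its call in 4 of 12 fits with 1 array left out.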

How the results depend on the processing

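The number of probe sets past the threshold at 7 days (104: 24 higher, 80 lower) depended strongly on the setting. It was 55 (14 and 41) without the filter, 179 (43 and 136) with the filter at the median, 264 (59 and 205) after quantile normalization, 1380 (721 and 659) with array weights, 537 (207 and 330) at an adjusted p under 0.1, 244 (78 and 166) at an unadjusted p under 0.005 with a 1.5-fold difference, 463 (218 and 245) with the 6 arrays alone and 497 (194 and 303) with all 24. Centring each array on its median gave 14 higher. The replicate block gave 2 calls (0 and 2) and took the call of all 30 named genes that passed. Whether the replicate numbers pair the arrays is not stated in the labels. With each array left out the totals were 2 to 115, with 0 to 51 higher and 2 to 64 lower. Of the 30 named genes, 21 kept their call without control replicate 1, 1 without exposed replicate 3 (Ngp), 1 without control replicate 3 (Gpr4) and 0 in the other such fits. The cause of these changes was not tested.

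Between days, 0 calls became 1 (0 higher, 1 lower) with the median filter, centring, the trend and robust prior or an adjusted p under 0.1, 2 with array weights (2 lower), 397 (75 and 322) at the unadjusted threshold, 145 (20 and 125) with all 24 arrays, and 0 to 5 with an array left out. Between blood and nose, 2161 calls (1136 and 1025) became 1111 (586 and 525) with the median filter, 6309 (4097 and 2212) with array weights, whose estimation stopped before converging, 1414 (675 higher) with the replicate block and 3509 (2033 higher) at an adjusted p under 0.1. There were 1797 lower without the filter and 734 higher at the unadjusted threshold. With an array left out the totals were 821 to 2132, with 379 to 1160 higher and 442 to 986 lower.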

Other observations

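Lists of stress, signalling and growth genes, chosen with earlier results of these data known, gave no call in white blood cells at 7 days. Over all probe sets 0.475% passed in either direction, so lists of this size would hold few calls or none, and a lack of calls says little. Of all named genes tested, 61.4% had a positive difference. The type I interferon response had 37 measured members, 20 with a positive difference and a median of 0.04 on the log2 scale. Chemokines and their receptors had 31 measured members and a median of 0.14, with differences from −1.27 for Cxcr2, a receptor of neutrophils, to 1.02 for Cxcr6. Inflammatory cytokines and NF-kB targets had 24 measured members and a median of −0.0015. Heat shock chaperones had 16 positive of 19 and a median of 0.15, and NRF2 targets, the genes of the oxidant response, had 15 positive of 29 and a median of 0.0019. The p53 targets had 20 measured members with a median of 0.04, and the mitotic cell cycle genes 31 with a median of 0.10. Clock genes had 12 negative of 16 and a median of −0.14. Reported targets of the let-7 microRNAs had 17 positive of 29 and a median of 0.03.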
